A study of Homo sapiens with 6 samples.

Results

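IL10 and STAT3 signalling was followed through 10 genes in the U2932 RNA-seq experiment, namely the cytokines IL10 and IL6, the receptor chains IL10RA, IL10RB and IL6R, the kinases JAK1, JAK2 and TYK2, the transcription factor STAT3 and the inhibitor SOCS3. The 10 genes are defined by their symbols and were chosen as a pathway with earlier results of these data known, and all 10 were present among the 20667 gene symbols of each library. U2932 is a cell line established from a diffuse large B cell lymphoma of the activated B cell type (ABC-DLBCL), and the cells were grown without added cytokine. One group, ROCK2 KD, carried a lentiviral shRNA against the kinase ROCK2 and the other, Scr, carried a scrambled shRNA in the same pLKO.1 vector with puromycin resistance and tGFP, so that both groups share the infection, the vector and the selection. A single ROCK2 construct was used, with 3 libraries in each group, numbered as replicates 1, 2 and 3. Nothing in the labels says that the libraries came from separate cultures, so p-values measure only the spread between these samples, which may be technical.

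IL10 is an anti-inflammatory cytokine that activated B cells and ABC-DLBCL cells can secrete. It binds a receptor made of IL10RA, which binds IL10 with high affinity and docks JAK1, and IL10RB, which carries TYK2 and is shared with other cytokines of the family. The kinases phosphorylate STAT3, which enters the nucleus and induces its target genes, among them SOCS3. IL6 reaches the same STAT3 through IL6R and the shared chain gp130, encoded by IL6ST, and SOCS3 protein blocks gp130 signalling. In ABC-DLBCL, autocrine IL6 and IL10 are known to feed JAK and STAT3 activity, so the question asked of these data is whether the mRNAs of this circuit differ between ROCK2 KD and Scr cells.

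ROCK2 phosphorylates IRF4, a factor that acts on IL10. The study used a double-stranded DNA of the IL10 enhancer to precipitate IRF4 from extracts of transfected HEK cells, not of U2932 cells. It reports weaker binding by an IRF4 mutant that cannot be phosphorylated at the ROCK2 sites. It also reports less IRF4 at the IL10 enhancer in stimulated Ramos cells with ROCK2 silenced. The sequence is shown because it is a regulatory element of 1 of the 10 genes and the study assayed it. It is 89 bases long and matched chr1:206957662-206957750 of GRCh37 exactly and once on chromosome 1, on the plus strand. The element lies 11823 bases upstream of the IL10 start site, inside an intron of the neighbouring cytokine gene IL19. Capitals mark GAAA and GGAA, the cores of the elements bound by IRF and ETS factors, and overlapping matches run together.
IL10 enhancer: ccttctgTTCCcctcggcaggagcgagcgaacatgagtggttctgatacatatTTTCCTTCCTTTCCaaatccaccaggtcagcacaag
All matches were on the strand opposite to the one printed, with 2 of GAAA and 4 of GGAA. Of 27305 promoters cut to the same 89 bases before the start site, 49.0% held GAAA and 63.1% held GGAA on either strand, so that both cores are common. A composite of both cores, GGAA and GAAA in a row with 2 bases between them, present in 0.8% of those promoters, and the STAT letters TTCNNNGAA, present in 2.0%, were not found in these 89 bases.

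The IL10 promoter is shown beside it, as the RefSeq sequence of the 250 bases before the start site in GRCh38.p14, chr1:206772495-206772744 on the minus strand. Capitals mark TATAAA, whose first base lies 30 bases before the start site. These letters were found on either strand in 11.1% of all promoters of this length.
IL10 promoter: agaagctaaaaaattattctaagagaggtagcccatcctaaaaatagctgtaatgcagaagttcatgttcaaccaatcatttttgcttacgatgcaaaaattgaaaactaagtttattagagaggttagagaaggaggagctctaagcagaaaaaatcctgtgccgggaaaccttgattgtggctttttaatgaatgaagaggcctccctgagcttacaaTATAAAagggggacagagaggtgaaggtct
RefSeq promoters were matched for 10 of the 10 genes, taking the entry listed first for each. TTCNNNGAA was found on either strand in 0 of the 10, against 6.8% of all promoters, and the composite of GGAA and GAAA in 0 of the 10, against 2.4%, which says only that these letters are not in those windows.

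The values are FPKM, numbers of fragments divided by the length of the transcript and by the size of the library, which were then brought to 1 scale across libraries. Differences are ROCK2 KD minus Scr on log2(scaled FPKM + 1), which understates the change of low genes. The same-numbered libraries are called a pair. The test was limma with the replicate number as a block. A gene was tested if 3 or more libraries reached 1 FPKM, which left 10526 genes. With an adjusted p under 0.05, limma called 0 of them (0.0%), the lowest adjusted p was 0.817, and 565 genes (5.37%) had an unadjusted p under 0.05. ComBat followed by limma without the block called 280 genes (2.66%). That fit does not count the replicate means that ComBat removed, so its p-values here and below tend to be too small. From the steps between low values, the libraries were estimated to hold 27200000 to 38100000 fragments. Replicate 1 stood apart in both groups, with an FPKM sum of 208289 to 217309 against 438262 to 480612 in the other libraries. ROCK2, the target, was at 4.06, 4.31 and 1.05 scaled FPKM in ROCK2 KD replicates 1, 2 and 3 and at 6.37, 5.83 and 4.90 in Scr, without overlap (0.922% of all genes tested had all ROCK2 KD libraries below all Scr libraries), and its log2 fold change was -0.81 ± 0.22 (SE, limma, adjusted p = 0.817), or -0.44 without replicate 3. The knockdown was deeper in replicate 3, with a log2 difference of -1.52, than in replicates 1 and 2, with -0.54 and -0.36. The related kinase ROCK1 had a log2 fold change of 0.002 ± 0.10. The 6 B cell markers summed to 466 to 1220 scaled FPKM per library against at most 1.44 for 5 T cell markers, 3.87 for 5 myeloid, 5.61 for 4 epithelial and 0.63 for 3 erythroid markers. In bulk RNA, fewer cells with a transcript and less of it per cell cannot be told apart.

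Of the 10 genes, 7 passed the filter on low values and were tested, and IL6, IL6R and SOCS3 were not. IL10 reached 1 FPKM in exactly 3 libraries, ROCK2 KD replicates 2 and 3 and Scr replicate 2, so that it passed through the group where it is higher, and the counts and the median over the 7 are a description only. None of the 7 was called at an adjusted p under 0.05 by limma with the block. An unadjusted p under 0.05 was reached by 2 of 7, IL10 and JAK2, both higher in ROCK2 KD, against 3.01% of all genes tested that were higher at this p. The log2 fold change was above 0 for 5 of 7 (48.1% of all genes tested) and 3 of 7 were higher in all 3 pairs (12.5% of all genes tested). The median of the 7 was 0.18, beside -0.006 over all genes tested, whose 5th to 95th percentiles were -0.253 to 0.257. It was 0.0465 without replicate 3 and 0.0895 with no filter on low values, which adds the 3 low genes. With FPKM of at least 1 required in all 6 libraries, IL10 was not tested, 1 of the 10 genes had an unadjusted p under 0.05 and the median was 0.14.

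**Figure D1:**
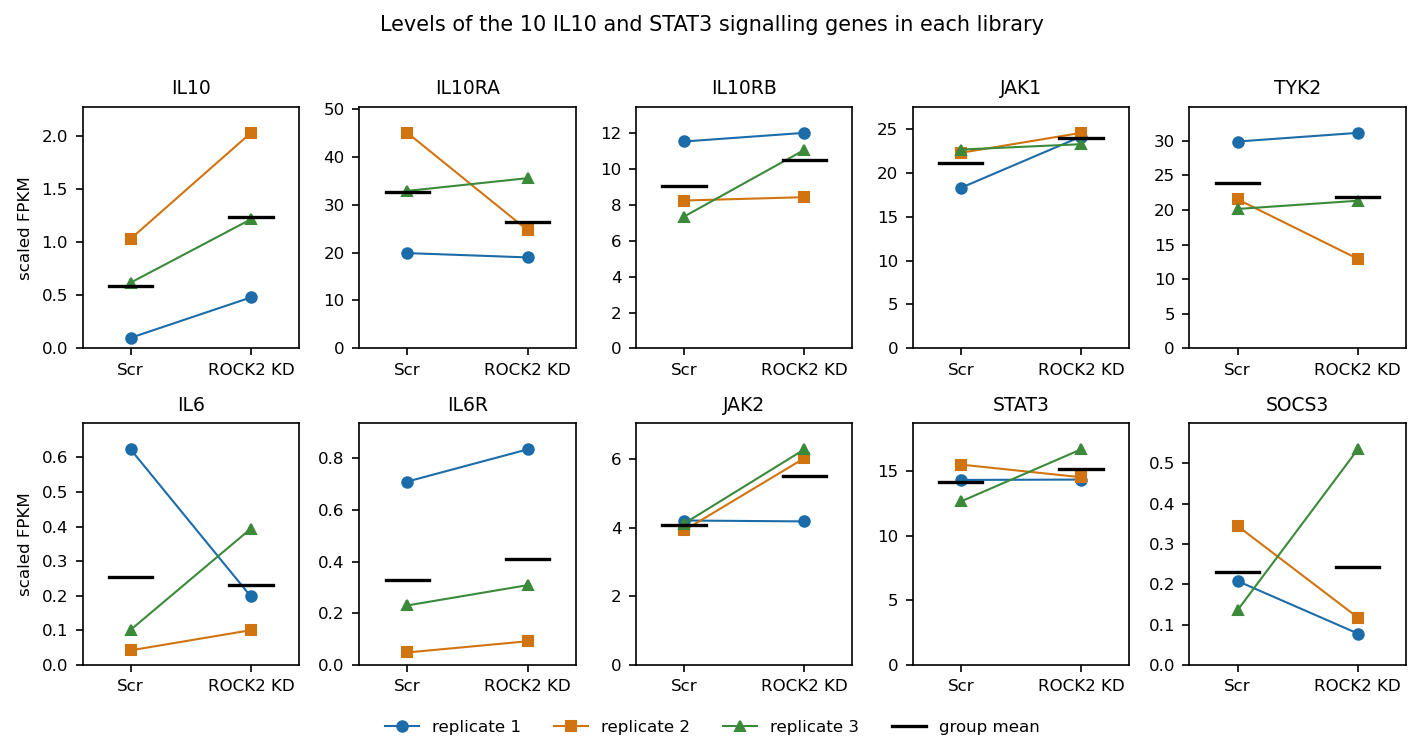
Scaled FPKM (vertical axes from 0, a scale for each gene) of the 10 genes in the 3 Scr and 3 ROCK2 KD libraries, with a line joining the libraries of the same replicate number and a black bar at each group mean. IL10 is higher in ROCK2 KD on all 3 lines while the groups overlap, JAK1 is the gene whose groups do not overlap, and IL6, IL6R and SOCS3 stay below 1 in every library.

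IL10, on the minus strand of chromosome 1 (206940947 to 206947886, GRCh37), was at 0.480, 2.03 and 1.22 scaled FPKM in ROCK2 KD replicates 1, 2 and 3 and at 0.10, 1.03 and 0.620 in Scr replicates 1, 2 and 3. The ROCK2 KD library was the higher of each pair, and the groups overlapped, since replicate 2 was high and replicate 1 low in both. The log2 differences within pairs were 0.43, 0.58 and 0.45, and the log2 fold change was 0.49 ± 0.11 (SE, limma, adjusted p = 0.817). Without the block the same fold change had an adjusted p of 1.0, and after ComBat it was 0.37 with an adjusted p of 0.0204, the ends of the range over the alternatives. The fit after ComBat does not count the replicate means it removed, so its p-value tends to be too small. The mean level was 1.24 ± 0.78 scaled FPKM in ROCK2 KD and 0.584 ± 0.467 in Scr (SD, n = 3). IL10 was among the genes that the study itself picked from these libraries, so its direction here is not independent evidence. Beside the RNA-seq, the study cites RT-qPCR of U2932 knockdown cells for the IRF4-repressed genes it names, IL10 among them.

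The difference in IL10 within pairs was smaller than the spread between the replicate numbers, whose means ranged over 0.96 on the log2(scaled FPKM + 1) scale. On the linear scale, ROCK2 KD over Scr was 4.8 in replicate 1, resting on an estimated 14 and 3 fragments (95% counting interval 1.34 to 26.0). In replicate 2 the ratio was 1.97, from an estimated 121 and 74 fragments (1.45 to 2.65). In replicate 3 it was 1.96, from an estimated 83 and 45 fragments (1.39 to 2.98). The intervals overlap each other and lie above 1, and they cover counting error only. With a pseudocount of 0.1 in place of 1 the log2 fold change of IL10 was 1.11.

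IL6, the other cytokine of the circuit (chromosome 7, 22765503 to 22771621), was at 0.198, 0.101 and 0.394 scaled FPKM in ROCK2 KD replicates 1, 2 and 3 and at 0.623, 0.042 and 0.102 in Scr. The highest and the lowest library were both Scr, and the groups overlapped. The values rest on an estimated 2.08 to 18.5 fragments per library, and the pairs pointed both ways, by -0.44, 0.08 and 0.34 on the log2 scale, with a log2 fold change of -0.007 ± 0.17 (SE, no filter on low values).

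IL10RA, the ligand-binding chain of the IL10 receptor (chromosome 11, 117857085 to 117873752), was at 19.0, 24.7 and 35.5 scaled FPKM in ROCK2 KD replicates 1, 2 and 3 and at 19.9, 45.0 and 32.9 in Scr. The Scr library of replicate 2 stood above the others, and the groups overlapped. The log2 differences were -0.06, -0.84 and 0.11, so that the log2 fold change of -0.26 ± 0.19 (SE, limma, adjusted p = 0.961) rests on replicate 2, without which it was 0.02.

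IL10RB, the chain shared with the receptors of other family cytokines (chromosome 21, 34638672 to 34683725), was at 12.0, 8.43 and 11.1 scaled FPKM in ROCK2 KD replicates 1, 2 and 3 and at 11.5, 8.24 and 7.35 in Scr. Replicates 1 and 2 were alike in both groups, and ROCK2 KD replicate 3 was higher than its partner. The log2 differences were 0.05, 0.03 and 0.53, with a log2 fold change of 0.20 ± 0.13 (SE, limma, adjusted p = 0.959), which was 0.0465 without replicate 3.

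The receptor chains can also be set against each other within a library, since FPKM are per length. IL10RA over IL10RB was 1.58, 2.93 and 3.21 in ROCK2 KD replicates 1, 2 and 3 and 1.73, 5.46 and 4.47 in Scr. The ratio was the lower of each pair in ROCK2 KD, by log2 differences of -0.13, -0.90 and -0.48, while the groups overlapped. Both chains were well above IL10 in every library, so that the receptor mRNAs were present in both groups.

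IL6R, the IL6-binding chain (chromosome 1, 154377669 to 154441926), was at 0.834, 0.092 and 0.309 scaled FPKM in ROCK2 KD replicates 1, 2 and 3 and at 0.710, 0.048 and 0.230 in Scr. Replicate 1 of both groups was the highest, and the difference between replicate numbers was far larger than that within pairs, which was 0.10, 0.06 and 0.09 on the log2 scale. All 3 pairs were above 0, as for 10.4% of genes with no filter on low values. In that fit the log2 fold change was 0.08 ± 0.028 (SE, limma, adjusted p = 0.901), with an unadjusted p under 0.05, as for 4.08% of genes. The signalling chain IL6ST was at 1.64 to 4.69 scaled FPKM over the 6 libraries, above IL6R in each, with a log2 fold change of 0.07 ± 0.12, which turned to -0.01 without replicate 3.

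**Figure D2:**
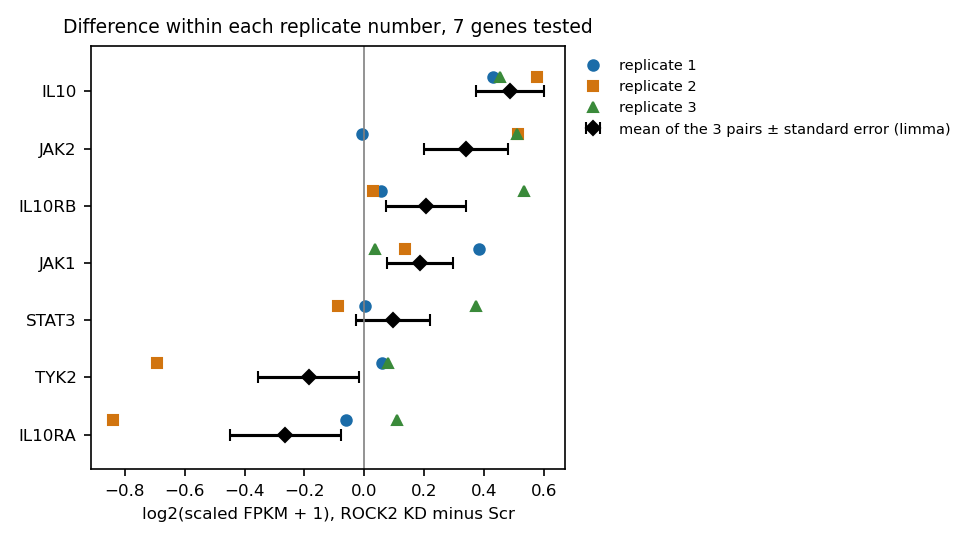
Difference between ROCK2 KD and Scr on log2(scaled FPKM + 1) (horizontal axis) for the 7 genes tested, with a coloured symbol for each replicate number and a diamond with its standard error for the mean of the 3 pairs. IL10 has 3 close pairs between 0.43 and 0.58, while IL10RA and TYK2 are set apart by replicate 2 and IL10RB and STAT3 by replicate 3.

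JAK1, the kinase used by IL10RA and gp130 (chromosome 1, 65298906 to 65533437), was at 24.1, 24.5 and 23.3 scaled FPKM in ROCK2 KD replicates 1, 2 and 3 and at 18.3, 22.3 and 22.6 in Scr. The 3 ROCK2 KD libraries were all above the 3 Scr libraries, as for 1.24% of all genes tested. The log2 differences were 0.38, 0.13 and 0.04, with a log2 fold change of 0.18 ± 0.11 (SE, limma, adjusted p = 0.952), which was 0.0899 without replicate 1.

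JAK2, a kinase that gp130 and several hormone receptors also use (chromosome 9, 4984390 to 5129948), was at 4.19, 6.03 and 6.29 scaled FPKM in ROCK2 KD replicates 1, 2 and 3 and at 4.21, 3.92 and 4.12 in Scr. The 3 Scr libraries and ROCK2 KD replicate 1 were alike, and ROCK2 KD replicates 2 and 3 were above them. The log2 differences were -0.01, 0.51 and 0.51, and the log2 fold change was 0.34 ± 0.14 (SE, limma, adjusted p = 0.917). It was 0.53 without replicate 1 and 0.25 without either of the others.

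TYK2, the kinase of IL10RB (chromosome 19, 10461209 to 10491284), was at 31.2, 12.9 and 21.4 scaled FPKM in ROCK2 KD replicates 1, 2 and 3 and at 29.9, 21.6 and 20.2 in Scr. ROCK2 KD replicate 2 was the lowest library, and replicate 1 was high in both groups. The log2 differences were 0.06, -0.69 and 0.08, so that the log2 fold change of -0.19 ± 0.17 (SE, limma, adjusted p = 0.969) rests on replicate 2, without which it was 0.07. JAK1 over JAK2 was 5.76, 4.07 and 3.70 in ROCK2 KD and 4.34, 5.68 and 5.49 in Scr, higher in ROCK2 KD in replicate 1 and lower in replicates 2 and 3.

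STAT3, the transcription factor at which the IL10 and IL6 receptors meet (chromosome 17, 40465342 to 40540558), was at 14.4, 14.6 and 16.7 scaled FPKM in ROCK2 KD replicates 1, 2 and 3 and at 14.3, 15.5 and 12.7 in Scr. The 6 libraries were close to each other, and the means of the replicate numbers ranged over 0.06 on the log2 scale, the narrowest of the 10 genes. The log2 differences were 0.00, -0.09 and 0.37, with a log2 fold change of 0.10 ± 0.12 (SE, limma, adjusted p = 0.979), which was -0.04 without replicate 3.

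SOCS3, the inhibitor that STAT3 induces (chromosome 17, 76352859 to 76356158), was at 0.078, 0.118 and 0.535 scaled FPKM in ROCK2 KD replicates 1, 2 and 3 and at 0.208, 0.345 and 0.136 in Scr. ROCK2 KD replicate 3 was the highest library and ROCK2 KD replicate 1 the lowest, and the pairs pointed both ways, by -0.16, -0.27 and 0.43 on the log2 scale. The values rest on an estimated 3.92 to 60.9 fragments, and with no filter on low values the log2 fold change was 0.001 ± 0.16 (SE, limma).

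The mean levels in Scr ordered the 10 genes from IL10RA, at 32.6 ± 12.6 scaled FPKM (SD, n = 3), through TYK2 at 23.9 ± 5.28, JAK1 at 21.1 ± 2.42, STAT3 at 14.2 ± 1.44, IL10RB at 9.04 ± 2.2 and JAK2 at 4.09 ± 0.15 to IL10 at 0.584 ± 0.467. IL6R at 0.329 ± 0.342, IL6 at 0.256 ± 0.320 and SOCS3 at 0.230 ± 0.106 came last. The steps from JAK1 to STAT3, from STAT3 to IL10RB, from IL10RB to JAK2 and from JAK2 to IL10 held in 6 of 6 libraries. IL10RA, TYK2 and JAK1 overlapped with their neighbours, and so did IL10, IL6R, IL6 and SOCS3. The receptor chains of IL10, the kinases and STAT3 thus stood above both cytokines in every library.

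The genes around the circuit were read from lists of cytokines, receptor chains, kinases and STATs, inhibitors, STAT3-induced genes, factors that act on IL10, and chromosomal neighbours. Of the 110 listed genes in the files, 69 were tested, 0 were called at an adjusted p under 0.05 by limma, and 8 had an unadjusted p under 0.05, all higher in ROCK2 KD (3.01% of all genes tested were higher at this p). The 8 include STAT4, which passed the filter through the group where it is higher, so the count is a description only. With FPKM of at least 1 required in all 6 libraries it was 7. The log2 fold change was above 0 for 50 of the 69 and below 0 for 19, with a median of 0.07, beside 48.1% above 0 and a median of -0.006 over all genes tested. The counts of each list that follow are to be read against these shares, 48.1% above 0 and 3.01% higher at an unadjusted p under 0.05. After ComBat, limma without the block called 4 of the 69 (2.66% of all genes tested), IL2RG (adjusted p = 0.0197), BHLHE40 (0.0494) and PLGRKT (0.0455) as higher and PIAS4, an inhibitor of STAT factors, as lower (0.0449). These calls carry the same limit, that the removed replicate means are not counted. PIAS4 had a log2 fold change of -0.23 ± 0.10 with the block (SE, limma, adjusted p = 0.917).

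**Figure D3:**
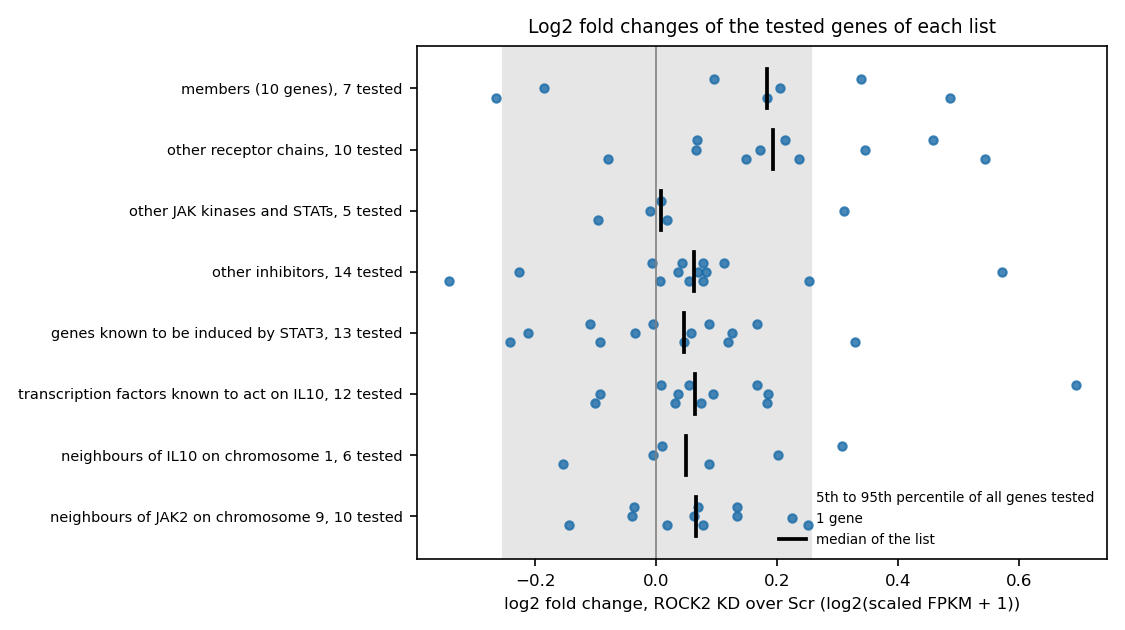
Log2 fold change of ROCK2 KD over Scr on log2(scaled FPKM + 1) (horizontal axis) for the tested genes of each list, 1 point per gene with a bar at the median, over a grey band for the 5th to 95th percentile of all genes tested. The medians of the 10 genes' tested members and of the other receptor chains are 0.18 and 0.19, and those of the other lists lie between 0.01 and 0.07.

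None of the 15 other cytokines of the IL10 and IL6 families passed the filter, and the highest value was that of CLCF1, a gp130 cytokine, at 1.39 scaled FPKM. Of 17 other receptor chains, 10 were tested and 9 had a log2 fold change above 0, with a median of 0.19. IL2RG, IL21R and IL27RA, 3 of the 10, had an unadjusted p under 0.05. IL2RG, the common gamma chain that pairs with IL21R and other chains and docks JAK3, was at 21.1, 29.8 and 25.3 scaled FPKM in ROCK2 KD replicates 1, 2 and 3 and at 15.8, 20.7 and 18.03 in Scr. The ROCK2 KD libraries were all above the Scr libraries, by 0.40, 0.51 and 0.47 within pairs, with a log2 fold change of 0.46 ± 0.10 (SE, limma, adjusted p = 0.817). IL21R, the receptor of a T cell cytokine that drives B cells towards plasma cells, had a log2 fold change of 0.35 ± 0.14 (SE), with pair differences of 0.65, 0.38 and -0.001, and 0.20 without replicate 1. IL27RA, which pairs with gp130, had 0.54 ± 0.18 (SE) and did not overlap, with pair differences of 0.18, 0.38 and 1.07, and 0.28 without replicate 3. The lowest chain was LEPR, the leptin receptor, at -0.08 ± 0.13, with pair differences of -0.29, -0.10 and 0.15, and it turned to 0.03 without replicate 1.

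Of the other JAK kinases and STATs on the list, 5 of 6 were tested and 1 (STAT4) had an unadjusted p under 0.05, while the median was 0.01. STAT4 reached 1 FPKM in every ROCK2 KD library but in Scr only in replicate 1. It thus passed the filter through the group where it is higher, and these counts are a description only. STAT4, which transmits IL12 signals, had 0.31 ± 0.12 (SE) and differed more between replicate numbers, with 4.93 and 4.12 scaled FPKM in replicate 1 of ROCK2 KD and Scr and at most 1.16 in the others. The lowest was STAT5B at -0.10 ± 0.12, with pair differences of 0.12, -0.23 and -0.18, and it ranged from -0.21 without replicate 1 to -0.03 without replicate 2.

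Of 17 other inhibitors, 14 were tested, 11 had a log2 fold change above 0, 1 (PTPN6) had an unadjusted p under 0.05, and the median was 0.06. PTPN6, the phosphatase SHP-1 that dephosphorylates JAK kinases, was at 8.23, 15.7 and 11.9 scaled FPKM in ROCK2 KD replicates 1, 2 and 3 and at 6.10, 6.36 and 10.5 in Scr. It was higher in ROCK2 KD in all 3 pairs, most in replicate 2 with a log2 difference of 1.18, and the groups overlapped. Without replicate 2 the log2 fold change was 0.27. Its log2 fold change was 0.57 ± 0.20 (SE, limma, adjusted p = 0.897). SOCS1, the inhibitor nearest to SOCS3 in mode of action, was the lowest at -0.34 ± 0.25, with pair differences of 0.46, -0.92 and -0.57, and ranged from -0.77 without replicate 1 to -0.06 without replicate 2.

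Among the 16 genes known to be induced by STAT3, 13 were tested and none had an unadjusted p under 0.05, with 7 above 0 and 6 below and a median of 0.05. BATF, a factor of B cell and T cell differentiation, was the highest at 0.33 ± 0.22, with pair differences of 0.51, -0.38 and 0.85, and 0.07 without replicate 3. BCL6, the repressor of the germinal centre, was the lowest at -0.24 ± 0.27, with pair differences of 0.43, -0.01 and -1.15, and turned to 0.22 without replicate 3. Within neither gene did the pairs point 1 way.

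Of the 14 factors known to act on IL10, 12 were tested, with 10 above 0, 1 (BHLHE40) at an unadjusted p under 0.05 and a median of 0.06. BHLHE40, a repressor of IL10 in T cells and myeloid cells, was at 13.8, 6.72 and 7.96 scaled FPKM in ROCK2 KD replicates 1, 2 and 3 and at 10.5, 2.47 and 5.06 in Scr. It was higher in ROCK2 KD in each pair, beside the higher IL10, with a log2 fold change of 0.69 ± 0.16 (SE, limma, adjusted p = 0.817). Like IL10, BHLHE40 was among the genes that the study picked from these libraries, so its direction is not independent evidence. The study cites its RT-qPCR for BHLHE40 too. Without replicate 2 the log2 fold change of BHLHE40 was 0.46. Replicate 1 was the highest for BHLHE40 and the lowest for IL10 in both groups. ETS1, whose family binds GGAA, was the lowest at -0.10 ± 0.16, with pair differences of 0.37, -0.29 and -0.38, and ranged from -0.33 without replicate 1 to 0.05 without replicate 3.

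**Figure D4:**
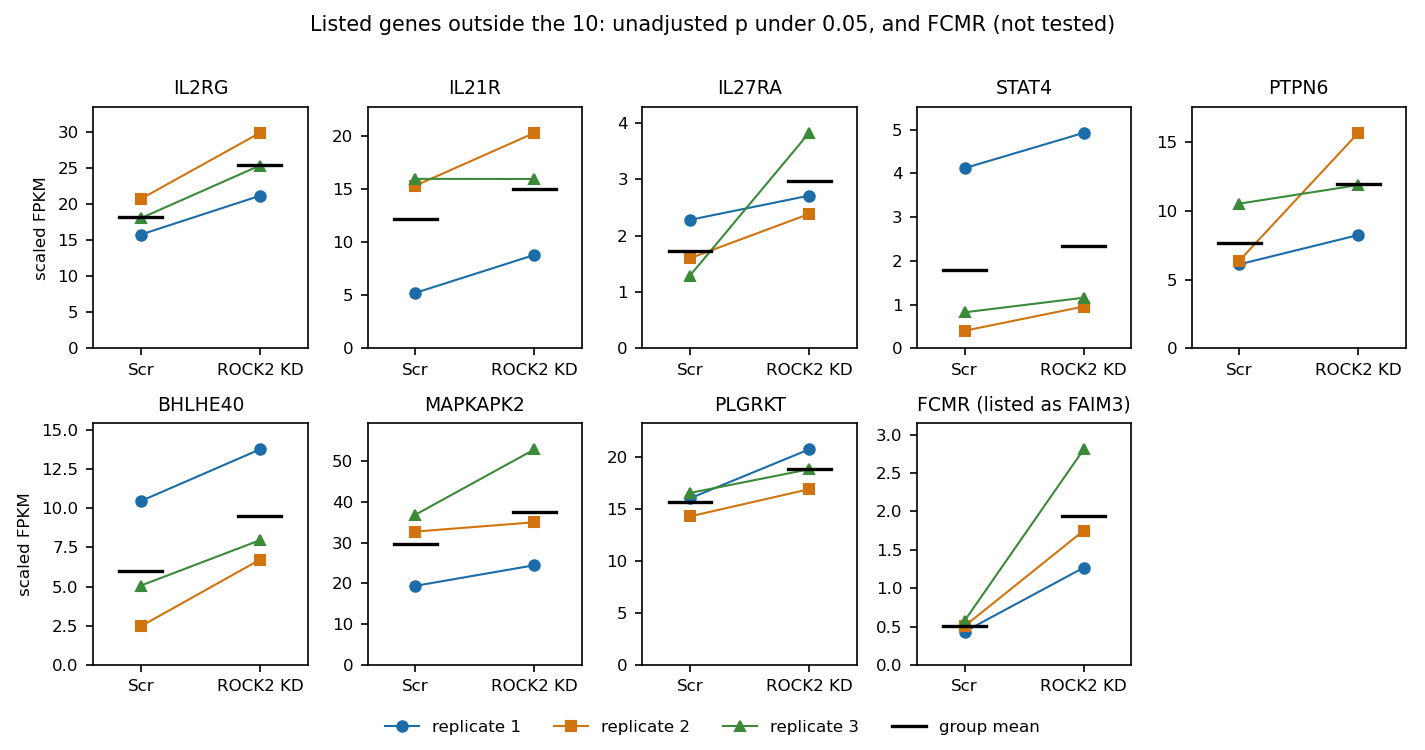
Scaled FPKM (vertical axes from 0, a scale for each gene) of the 8 listed genes with an unadjusted p under 0.05 and of FCMR, which was not tested, in the 3 Scr and 3 ROCK2 KD libraries, with lines joining the libraries of a replicate number and black bars at the group means. IL2RG, IL27RA, PLGRKT and FCMR do not overlap between the groups (1.24% of all genes tested had all ROCK2 KD libraries above all Scr libraries), the genes shown having been picked for their p or after their values were seen, and STAT4 is highest in replicate 1 of both.

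IL10 lies in a row of cytokine and immunoglobulin receptor genes on chromosome 1. Of 13 neighbours in the files, 6 were tested, with 4 above 0, 1 (MAPKAPK2) at an unadjusted p under 0.05 and a median of 0.05. MAPKAPK2, the kinase MK2 that stabilizes cytokine mRNAs, starts at -87.59 kb from IL10, which is towards lower coordinates, and had a log2 fold change of 0.31 ± 0.11 (SE), with pair differences of 0.32, 0.09 and 0.51. YOD1, a deubiquitinase 278.7 kb away on the other side, was the lowest at -0.15 ± 0.15, with pair differences of -0.51, 0.13 and -0.08, and turned to 0.03 without replicate 1.

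FCMR, the Fc receptor of IgM, which the files list as FAIM3, starts 149.4 kb from IL10 and was singled out after its values were seen. It was at 1.27, 1.75 and 2.81 scaled FPKM in ROCK2 KD replicates 1, 2 and 3 and at 0.434, 0.505 and 0.577 in Scr. The groups did not overlap (1.22% of genes with no filter on low values had all ROCK2 KD libraries above all Scr libraries), and the log2 differences of 0.66, 0.87 and 1.27 were each larger than those of IL10 in the same pair. It reached 1 FPKM in too few libraries to be tested, and with no filter its log2 fold change was 0.93 ± 0.15 (SE, limma, adjusted p = 0.901).

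The 3 cytokine genes next to IL10 were near 0 or at 0. IL20 was listed at 0 in all libraries, IL19 at 0 in both replicate 1 libraries and in all Scr libraries and at most at 0.103 scaled FPKM, and IL24 had at most 0.380. The first exon of IL19 overlaps IL10 on the opposite strand, and whether the counting used strand is not given in the sources used here.

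**Figure D5:**
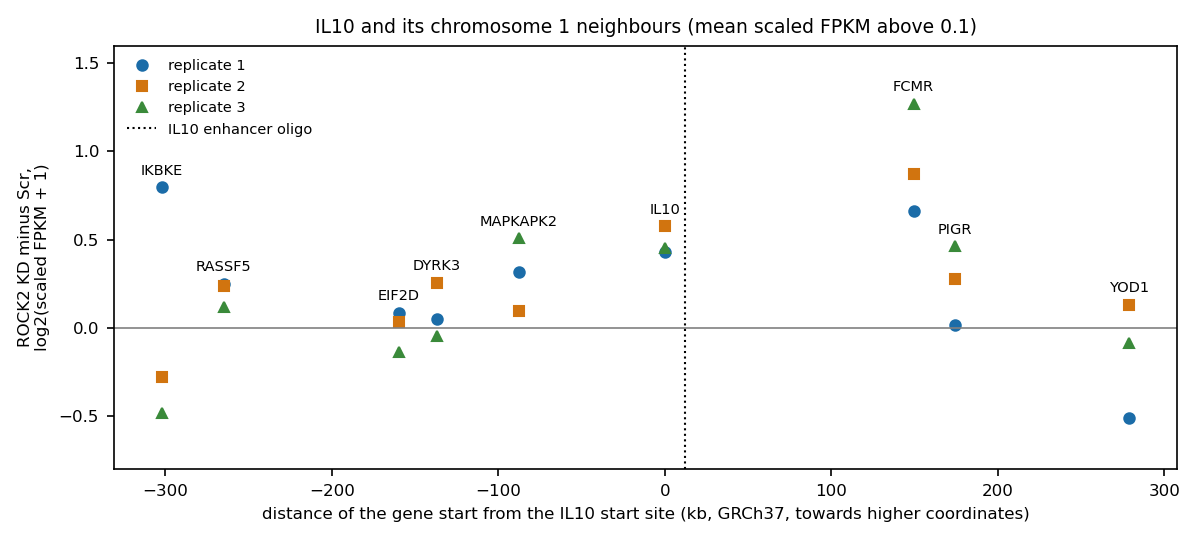
Difference between ROCK2 KD and Scr on log2(scaled FPKM + 1) (vertical axis) in each replicate number, for IL10 and its neighbours on chromosome 1 with a mean scaled FPKM above 0.1, against the distance of each gene's start from that of IL10 in kb (horizontal axis). The dotted line marks the IL10 enhancer element at 11823 bases, and IL10, RASSF5, MAPKAPK2, FCMR and PIGR have all 3 pairs above 0. All 3 pairs are above 0 for 12.5% of all genes tested and 10.4% of genes with no filter on low values. PIGR in replicate 1 rests on an estimated 2.87 fragments in ROCK2 KD and 1.92 in Scr.

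Of 16 neighbours of JAK2 on chromosome 9 in the files, 10 were tested, with 7 above 0, 1 (PLGRKT) at an unadjusted p under 0.05 and a median of 0.07. PLGRKT, a plasminogen receptor, was at 20.8, 16.9 and 18.9 scaled FPKM in ROCK2 KD replicates 1, 2 and 3 and at 16.1, 14.3 and 16.6 in Scr, without overlap. Its log2 fold change was 0.25 ± 0.10 (SE, limma, adjusted p = 0.917). UHRF2, a ubiquitin ligase of chromatin, was the lowest at -0.14 ± 0.10, with all 3 pairs below 0. CD274, which encodes the checkpoint ligand PD-L1 and was named after its values were seen, had a log2 fold change of 0.13 ± 0.12 and pair differences of 0.04, 0.30 and 0.06, and was 0.05 without replicate 2. It passed the filter through ROCK2 KD replicates 1 and 2 and Scr replicate 1, more from the group where it is higher.

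The genes whose pattern over the 6 libraries was most like that of a member, after the mean of each replicate number was removed, are given as a description. For IL10 they were SLC29A3, SEPT7, LARP1B, PSMA4 and HLA-DRB5, with a Pearson r of 0.99973 to 0.99871. Their log2 fold changes were 0.12, 0.28, 0.17, 0.11 and 0.62, and HLA-DRB5 can share reads with its near-identical copies. For STAT3 they were SLX1A, SEC16A, DNAJB9, C1orf186 and PTPRA, and for SOCS3 MAN2B2, KIAA1109, MOSPD3, ATP6AP1 and PRADC1. After the means are removed the pattern rests on 3 pair differences, so such values are common, and 47, 55 and 38 genes had an r above 0.99 with IL10, STAT3 and SOCS3.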

How the data were processed

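The deposited values are FPKM that the authors computed with Cufflinks after STAR alignment of 50-bp paired reads from Nextera libraries to hg19, per the labels and the study's methods. The transcript annotation and the use of strand are not given in the sources used here. Both groups came from the sample titles. Library scale factors were trimmed means of log ratios (0.3 of the ratios and 0.05 of the levels trimmed), and log2(scaled FPKM + 1) was fitted in limma 3.58.1 (R 4.3.3) with trend, condition and replicate number as a block, two-sided, with Benjamini-Hochberg adjustment over 10526 genes. The authors removed a batch effect of the replicates with ComBat before limma on counts. Here the block takes that place, and ComBat on FPKM is an alternative. Deviations from the group means correlated between libraries of 1 number, at 0.848, 0.784 and 0.737. The script was tested on simulated data. Depth was estimated from the steps of values between 5e-04 and 0.05 FPKM and gene lengths of GENCODE 44 on GRCh37, and intervals are exact binomial. Members and lists were chosen with earlier results of these data known. Named were all 10 genes and, per list, those with an unadjusted p under 0.05 and the highest and lowest fold change, ROCK2, ROCK1, and the 5 genes most like IL10, STAT3 and SOCS3. IL6ST, CLCF1, IL19, IL20, IL24, FCMR, RASSF5, PIGR, CD274 and PIAS4 were named outside this rule, after their values were seen. The 11 alternatives were no block, ComBat, no scaling, quantile scaling, pseudocount 0.1, no trend, no filter, a filter in all 6 libraries and leaving out each of the 3 replicates. Of the lists, 1 gene is not reported here.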

Additional observations from a re-analysis of the deposited data

How the results depend on the processing

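Depth limits IL6 to an estimated 2.08 to 18.5 fragments, IL10 in replicate 1 to 14 and 3, and SOCS3 to 3.92 in its lowest library. Of 76 values of the 7 tested genes under 11 alternatives, 72 kept their direction and their side of the threshold. No gene was near the threshold in the main fit, and several alternatives cannot change the fold change. This count therefore says little about robustness. After ComBat, 280 genes were called in place of 0, of the 10 genes 1 (IL10, 0.37), and 19 of the listed genes had an unadjusted p under 0.05 in place of 8. With no replicate block in the fit, 0 of the 10 genes and 2 of the listed genes had an unadjusted p under 0.05. That number was 1 for the 10 genes, in place of 2, with quantile normalization, with a pseudocount of 0.1 and with FPKM of at least 1 in all 6 libraries, where IL10 was not tested. The median log2 fold change of the 10 genes' tested members, 0.184, ranged from 0.0465 to 0.208 when a replicate was left out and was 0.0895 with no filter. Leaving out a replicate gave 0 to 4 genes called, 1 to 2 of the 10 genes and 5 to 7 of the listed genes with an unadjusted p under 0.05. The fold change ranged from -0.445 to 0.0231 for IL10RA and from -0.311 to 0.0679 for TYK2, turning without replicate 2, and from -0.0372 to 0.187 for STAT3, turning without replicate 3. The cause was not tested.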
